A study of Mus musculus with 7 samples.

Results

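The genes described here are 10 mRNAs that mark the wall of brain blood vessels, measured in hippocampal synaptoneurosomes of mice. They were chosen by symbol, through the Ensembl gene identifiers of the deposited gene table, and are 10 of its 22248 genes. Of these, 7 mark endothelial cells (Cldn5, Flt1, Pecam1, Kdr, Slco1a4, Abcb1a and Slc2a1) and 3 mark mural cells, the pericytes and smooth muscle around the vessel (Pdgfrb, Vtn and Rgs5). Synaptoneurosomes are a fraction of brain tissue enriched in pinched-off synapses, so vessel mRNA in them comes along from other cells of the tissue. All libraries came from wild-type female C57Bl/6J mice. AM6545 treatment was sub-chronic and has 4 libraries, replicates B, D, E and F, while vehicle has 3, replicates B, D and E. The compound AM6545 blocks CB1, a cannabinoid receptor, and is largely kept out of the brain. Dose, route, duration, age and the number of animals behind a library are not given in the sources used here, so p-values measure only the spread between these libraries. The question addressed is how much vessel mRNA the libraries held and whether its level differed between the treatments.

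Brain capillaries are lined by endothelial cells that are sealed to each other by tight junctions and carry nutrients and drugs across the blood-brain barrier with dedicated transporters. Pericytes share a basement membrane with them and are recruited by platelet-derived growth factor from the endothelium. Vascular endothelial growth factor acts on the endothelium through receptor tyrosine kinases. In bulk RNA, fewer vessel cells and less RNA per vessel cell cannot be told apart.

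Library totals ran from 19174649 to 25894733 estimated counts, and 16580 to 16874 genes had at least 1 count. All 10 genes passed the filter on low counts, among 14654 genes tested. Their counts in a library ran from 9.06 (Abcb1a in vehicle replicate D) to 2155 (Vtn in AM6545 replicate D). Abcb1a, Pecam1 and Flt1 were thinly counted, at 120 to 250 counts in all libraries together. For none of the 10 was a difference between the treatments detected. Of the 10, 0 had a Benjamini-Hochberg adjusted p under 0.05 by edgeR's quasi-likelihood test, against 0.00682% of all genes tested. At an unadjusted p under 0.05 there were 0 of 10 by edgeR, against 14.6% of all genes, 0 by DESeq2, against 14.2%, and 3 by limma-voom (Flt1, Pecam1 and Abcb1a), against 24.1%. After adjustment DESeq2 and limma-voom also called 0, and DESeq2 gave no adjusted p for Flt1, Pecam1 and Abcb1a. The median log2 fold change of the 10, AM6545 over vehicle, was 0.15, beside 0.01 over all genes tested. Of the 10, 8 had a fold change above 0, as had 51.4% of all genes. With the members at a mean of at least 50 counts, which leaves out Pecam1, Flt1 and Abcb1a, the median was 0.09, with 5 above and 2 below 0. Without vehicle replicate B it was 0.04, with 5 above and 5 below, without AM6545 replicate D 0.07, and without vehicle replicate D 0.08. Without vehicle replicate E it was 0.25.

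**Figure D1:**
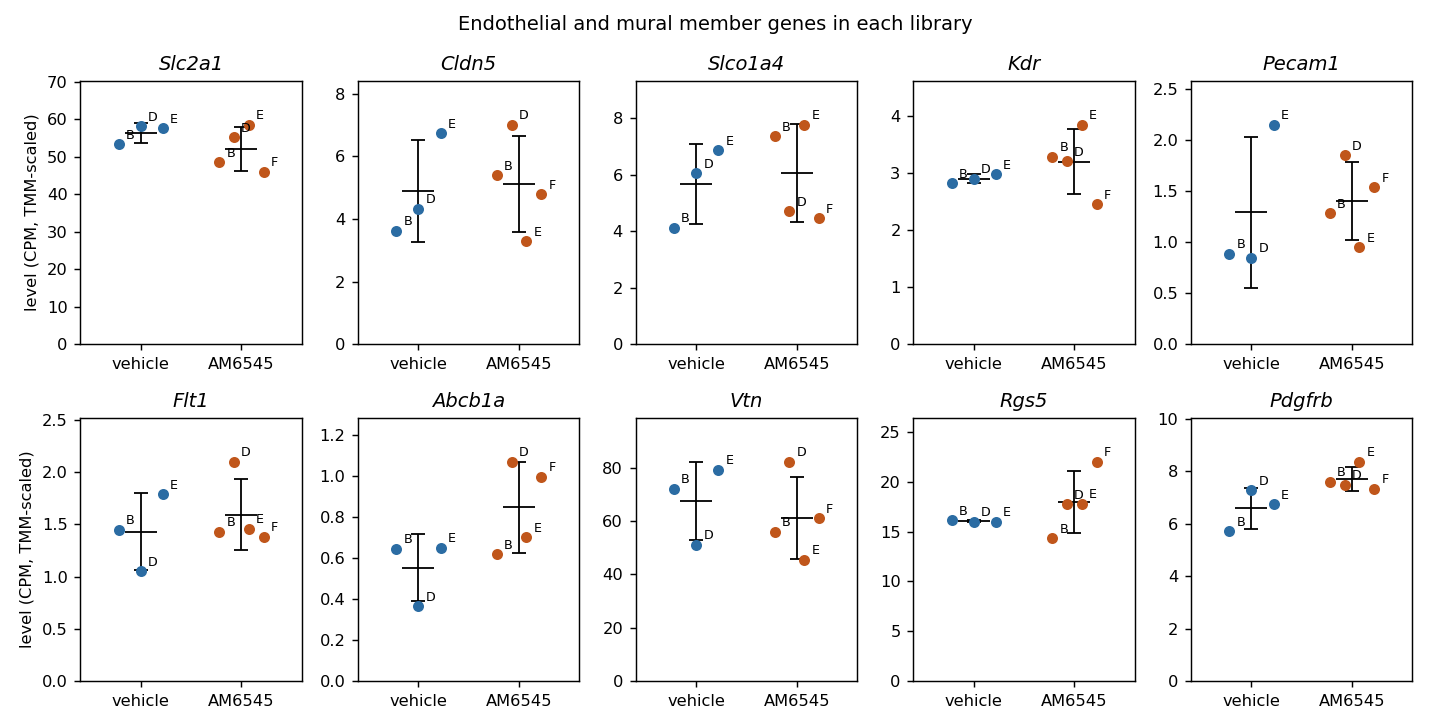
Level of each of the 10 genes in CPM, counts scaled to library size (vertical axes from 0) in every library, vehicle in blue and AM6545 in orange, with the replicate letter beside each point and the group mean ± SD as a black bar. The groups overlap for 9 of the 10 genes, and for Pdgfrb the lowest AM6545 library, at 7.34 CPM, lies just above the highest vehicle library, at 7.28 CPM.

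Levels of different genes were compared per kilobase of transcript, as CPM per kb. Vtn was highest at 37.6 ± 8.35 CPM per kb (SD, n = 7), followed by Slc2a1 at 18.5 ± 1.69 (SD, n = 7). These 2 genes made up 55.1% and 27.1% of the summed level of the 10. Rgs5 (4.19 ± 0.600 CPM per kb; SD, n = 7) and Cldn5 (3.55 ± 1.02; SD, n = 7) were next, and Rgs5 was the higher in only 4 of 7 libraries. Slco1a4 (1.69 ± 0.426; SD, n = 7) lay above Pdgfrb (1.34 ± 0.152; SD, n = 7) in 5 of 7 libraries, with overlapping ranges. Kdr (0.518 ± 0.0736; SD, n = 7) lay above Pecam1 (0.426 ± 0.160; SD, n = 7) in 4 of 7. Flt1 (0.242 ± 0.0530; SD, n = 7) and Abcb1a (0.186 ± 0.0619; SD, n = 7) were lowest, also with overlapping ranges. The ranges did not overlap between Vtn and Slc2a1, Slc2a1 and Rgs5, Cldn5 and Slco1a4, or Pdgfrb and Kdr. The median of all genes tested was 6.61 CPM per kb, which Vtn (percentile 84.1) and Slc2a1 (percentile 71.8) exceeded while the other 8 genes lay below it, down to percentile 3 for Abcb1a. Neuronal markers summed to 3591 ± 135 CPM per kb (SD, n = 7; 8 genes), beside 25.1 ± 2.22 for the 7 endothelial genes and 43.1 ± 8.28 for the 3 mural genes (SD, n = 7). Slc2a1 is also made by astrocytes.

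**Figure D2:**
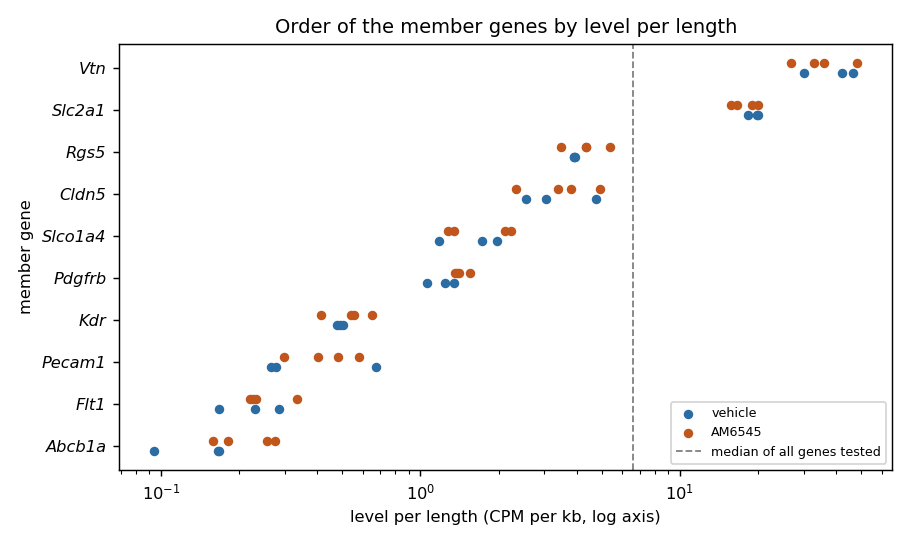
Level per kilobase of transcript (CPM per kb, logarithmic horizontal axis) of each gene in the 7 libraries, vehicle in blue and AM6545 in orange, with the median of all genes tested (6.61) as a dashed line. Vtn and Slc2a1 lie to the right of the line and the other 8 genes to its left.

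As a check of the label, further genes of the same cells were looked up. Other endothelial genes were present, with 28 of 30 past the filter, beside 14654 of all 22248 genes. Cdh5, the cadherin of endothelial junctions, fell below it at 2 to 16 counts a library, as did Erg, an endothelial transcription factor, at 0 to 3 counts. Egfl7, a matrix protein secreted by endothelium, was the highest of these per length at 44.2 CPM per kb, followed by Itm2a at 20.8 and the thyroxine transporter Slco1c1 at 13.8. The median of the 30 genes was far lower, at 0.777 CPM per kb, beside 6.61 for all genes tested. Exons on the opposite strand leave the level of Egfl7 uncertain. Slco1c1 was highest in AM6545 replicate E (55.3 CPM), followed by vehicle replicate D (51.6 CPM), and lowest in AM6545 replicate F (25.3 CPM). The summed CPM of choroid plexus markers, given below, was highest and lowest in the same libraries. Whether part of the Slco1c1 mRNA came from choroid plexus was not tested. Other pericyte genes passed in 11 of 12 cases, led by Mcam at 4.62 CPM per kb, with a median of 0.659. Arterial smooth muscle genes passed in 7 of 8, led by the myosin light chain gene Myl9 at 10.2 CPM per kb, with a median of 0.831.

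For 8 of the 10 genes RefSeq (GRCm38.p6) provided the 250 bases before the start of transcription. The 6 shown are the endothelial genes that shared their highest library with others, Cldn5, Flt1 and Abcb1a (AM6545 replicate D) and Slc2a1, Kdr and Slco1a4 (AM6545 replicate E). The window of Abcb1a lies before a RefSeq start 92986 bases from the GENCODE start of the gene. Capitals mark GGAA on either strand (TTCC when it lies on the other strand), the core bound by ETS factors, a family that includes regulators of endothelial genes.
Cldn5, chr16:18776597-18776846, plus strand: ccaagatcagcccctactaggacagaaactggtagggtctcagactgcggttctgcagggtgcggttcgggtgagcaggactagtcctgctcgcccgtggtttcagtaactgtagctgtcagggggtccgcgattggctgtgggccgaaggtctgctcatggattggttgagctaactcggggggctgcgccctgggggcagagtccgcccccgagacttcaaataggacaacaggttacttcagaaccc
Flt1, chr5:147726012-147726261, minus strand: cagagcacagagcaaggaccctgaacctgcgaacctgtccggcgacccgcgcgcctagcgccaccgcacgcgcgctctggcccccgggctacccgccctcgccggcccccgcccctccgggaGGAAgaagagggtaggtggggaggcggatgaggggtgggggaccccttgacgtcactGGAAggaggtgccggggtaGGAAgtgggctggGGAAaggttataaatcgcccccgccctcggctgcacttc
Abcb1a, chr5:8566841-8567090, plus strand: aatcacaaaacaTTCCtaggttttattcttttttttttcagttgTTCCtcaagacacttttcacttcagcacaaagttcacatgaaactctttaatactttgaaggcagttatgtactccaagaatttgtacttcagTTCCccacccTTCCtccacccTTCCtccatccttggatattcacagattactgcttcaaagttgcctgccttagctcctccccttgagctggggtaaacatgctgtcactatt
Slc2a1, chr4:119108495-119108744, plus strand: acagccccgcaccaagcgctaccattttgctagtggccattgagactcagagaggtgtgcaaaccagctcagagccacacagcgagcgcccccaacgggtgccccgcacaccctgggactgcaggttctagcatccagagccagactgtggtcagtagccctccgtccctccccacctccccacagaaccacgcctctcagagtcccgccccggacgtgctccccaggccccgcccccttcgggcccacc
Kdr, chr5:75978456-75978705, minus strand: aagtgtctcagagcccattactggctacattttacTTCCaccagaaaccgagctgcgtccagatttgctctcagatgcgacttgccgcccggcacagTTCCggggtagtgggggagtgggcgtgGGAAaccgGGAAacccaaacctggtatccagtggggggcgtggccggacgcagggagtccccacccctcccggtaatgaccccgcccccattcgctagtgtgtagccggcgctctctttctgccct
Slco1a4, chr6:141856221-141856470, minus strand: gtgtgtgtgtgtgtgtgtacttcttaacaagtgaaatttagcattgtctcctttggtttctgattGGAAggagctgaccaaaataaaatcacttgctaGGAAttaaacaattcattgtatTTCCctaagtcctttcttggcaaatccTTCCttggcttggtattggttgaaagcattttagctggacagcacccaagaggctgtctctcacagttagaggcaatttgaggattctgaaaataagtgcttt
The core occurred 0 times before Cldn5 and Slc2a1, 4 times each before Flt1, Kdr and Slco1a4 and 5 times before Abcb1a, so the count differed within each set of 3. It occurred in 93.5% of all 32851 RefSeq promoter windows of this length, with a median of 3, so holding it is the common case. The GC box GGGCGG, on either strand, occurred once before Cldn5, 3 times before Flt1, 2 times each before Slc2a1 and Kdr and 0 times before Abcb1a and Slco1a4, and in 32.7% of all windows. The windows of Cldn5, Flt1, Slc2a1 and Kdr were 59.6%, 70.4%, 66.4% and 61.6% G or C, and those of Abcb1a and Slco1a4 40.4% and 39.2%.

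Among the barrier genes, Cldn5 encodes claudin-5, the main claudin of the tight junctions between brain endothelial cells (ENSMUSG00000041378.3; chromosome 16, 18776847 to 18778262 in GENCODE M21 on GRCm38, the source of all positions here). Its level was 5.40, 7.001, 3.30 and 4.78 CPM in AM6545 replicates B, D, E and F and 3.62, 4.32 and 6.73 CPM in vehicle replicates B, D and E. The lowest and the highest of the 7 libraries were both AM6545 libraries. Its log2 fold change was 0.09 (SE 0.26, 95% interval -0.48 to 0.66; edgeR, adjusted p 0.891). It was -0.10 without AM6545 replicate D and -0.084 without vehicle replicate B, but 0.25 without AM6545 replicate E and 0.37 without vehicle replicate E.

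Pecam1, the adhesion molecule CD31 at contacts between endothelial cells (ENSMUSG00000020717.20; chromosome 11, 106654217 to 106750628), was at 1.28, 1.85, 0.95 and 1.54 CPM in AM6545 replicates B, D, E and F. In vehicle replicates B, D and E it was at 0.89, 0.85 and 2.15 CPM. Vehicle replicate E stood above all other libraries and the remaining vehicle libraries below all of them. The log2 fold change was 0.17 (SE 0.36, 95% interval -0.62 to 0.96; edgeR, adjusted p 0.846). It was 0.71 without vehicle replicate E, -0.038 without vehicle replicate B, -0.066 without vehicle replicate D and, AM6545 replicate D left out, 0.0027.

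Among the transporters, Slc2a1 encodes the glucose transporter GLUT1 (ENSMUSG00000028645.12; chromosome 4, 119108711 to 119137983). It was at 48.6, 55.3, 58.5 and 46.0 CPM in AM6545 replicates B, D, E and F and at 53.3, 58.2 and 57.6 CPM in vehicle replicates B, D and E. With a coefficient of variation of 9.13% over the 7 libraries it was the least variable of the 10 genes. Its interval was the narrowest, with a log2 fold change of -0.11 (SE 0.11, 95% interval -0.35 to 0.12; edgeR, adjusted p 0.631), which is 0.924-fold with bounds of 0.786 and 1.09. Leaving out AM6545 replicate E moved it to -0.17 and AM6545 replicate F to -0.058. Its level is uncertain where the opposite-strand gene Gm12868 overlaps an exon.

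Slco1a4, an organic anion transporter of brain endothelium that is also made in choroid plexus (ENSMUSG00000030237.15; chromosome 6, 141805440 to 141856199), was at 7.36, 4.70, 7.76 and 4.46 CPM in AM6545 replicates B, D, E and F. It was at 4.12, 6.04 and 6.87 CPM in vehicle replicates B, D and E. The AM6545 libraries fell into a higher and a lower pair, on either side of vehicle replicate D. Its log2 fold change was 0.10 (SE 0.24, 95% interval -0.42 to 0.61; edgeR, adjusted p 0.866), with a range from -0.090 without vehicle replicate B to 0.25 without vehicle replicate E.

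Abcb1a, which encodes the drug efflux pump P-glycoprotein (ENSMUSG00000040584.9; chromosome 5, 8660077 to 8748575), was the lowest of the 10, at 0.617, 1.07, 0.702 and 0.997 CPM in AM6545 replicates B, D, E and F. It was at 0.644, 0.365 and 0.649 CPM in vehicle replicates B, D and E. Vehicle replicate D lay far below the other libraries, and AM6545 replicate B lay within the vehicle range. The log2 fold change was the largest of the 10 at 0.63, with the widest error but for Pecam1 (SE 0.35, 95% interval -0.13 to 1.40; edgeR, unadjusted p 0.0956, adjusted p 0.420). Over the alternatives it ranged from 0.34, with the GC and length correction and the replicate block, to 1.13 by limma-voom (adjusted p 0.0768), and it was 0.39 without vehicle replicate D. Abcb1a rested on 120 counts in all 7 libraries together, Gm42686 overlaps an exon on the other strand, and 3.54% of its transcript Abcb1a-201 matches its neighbour Abcb1b at 98% identity or more.

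The receptor genes Kdr and Flt1 encode the receptors VEGFR-2 and VEGFR-1, the first the main signalling receptor of vascular endothelial growth factor in endothelium and the second also a decoy for it. Kdr (ENSMUSG00000062960.11; chromosome 5, 75932827 to 75978458) was at 3.29, 3.21, 3.84 and 2.46 CPM in AM6545 replicates B, D, E and F and at 2.82, 2.90 and 2.98 CPM in vehicle replicates B, D and E. The vehicle libraries lay close together, inside the wider range of the AM6545 libraries. Its log2 fold change was 0.14 (SE 0.19, 95% interval -0.28 to 0.55; edgeR, adjusted p 0.752), with 0.041 without AM6545 replicate E and 0.25 without AM6545 replicate F.

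Flt1 (ENSMUSG00000029648.14; chromosome 5, 147561604 to 147726011) was at 1.43, 2.10, 1.46 and 1.38 CPM in AM6545 replicates B, D, E and F and at 1.45, 1.05 and 1.79 CPM in vehicle replicates B, D and E. AM6545 replicate D stood above the other AM6545 libraries, which lay together inside the vehicle range. The log2 fold change was 0.17 (SE 0.27, 95% interval -0.41 to 0.76; edgeR, adjusted p 0.778), and 0.35 without vehicle replicate E. It was 0.0076 without AM6545 replicate D and -0.011 without vehicle replicate D.

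Among the mural genes, Pdgfrb encodes the receptor through which pericytes are recruited (ENSMUSG00000024620.12; chromosome 18, 61045150 to 61085061). It was at 7.61, 7.49, 8.37 and 7.34 CPM in AM6545 replicates B, D, E and F and at 5.72, 7.28 and 6.75 CPM in vehicle replicates B, D and E. It was the only one of the 10 whose groups did not overlap, by a narrow margin, beside 13.8% of all genes tested, 6.62% higher and 7.19% lower. The log2 fold change was 0.22 (SE 0.14, 95% interval -0.07 to 0.52; edgeR, unadjusted p 0.129, adjusted p 0.460), higher in 4 of 4 AM6545 libraries. With GC content and gene length corrected for, it was 0.29 (edgeR, unadjusted p 0.0456, adjusted p 0.732), while it was 0.10 by limma-voom and 0.13 without vehicle replicate B.

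Vtn encodes the matrix protein vitronectin, made in brain largely by pericytes (ENSMUSG00000017344.5; chromosome 11, 78499091 to 78502324). It was at 56.0, 82.2, 45.5 and 61.0 CPM in AM6545 replicates B, D, E and F and at 72.0, 51.0 and 79.2 CPM in vehicle replicates B, D and E. Both extremes were AM6545 libraries. The log2 fold change was -0.14 (SE 0.20, 95% interval -0.57 to 0.30; edgeR, adjusted p 0.763). It was -0.31 without AM6545 replicate D and -0.30 without vehicle replicate D, but -0.020 without AM6545 replicate E and -0.0068 without vehicle replicate E.

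Rgs5, a regulator of G protein signalling abundant in pericytes (ENSMUSG00000026678.11; chromosome 1, 169655501 to 169695813), was at 14.3, 17.8, 17.8 and 22.05 CPM in AM6545 replicates B, D, E and F. It was at 16.2, 16.02 and 16.02 CPM in vehicle replicates B, D and E, with an SD of 0.0852 (n = 3) against 3.16 (n = 4) in AM6545. The log2 fold change was 0.16 (SE 0.14, 95% interval -0.13 to 0.46; edgeR, adjusted p 0.584), and 0.050 without AM6545 replicate F, its highest library. It was 0.25 without AM6545 replicate B. With the GC and length correction it was -0.054.

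**Figure D3:**
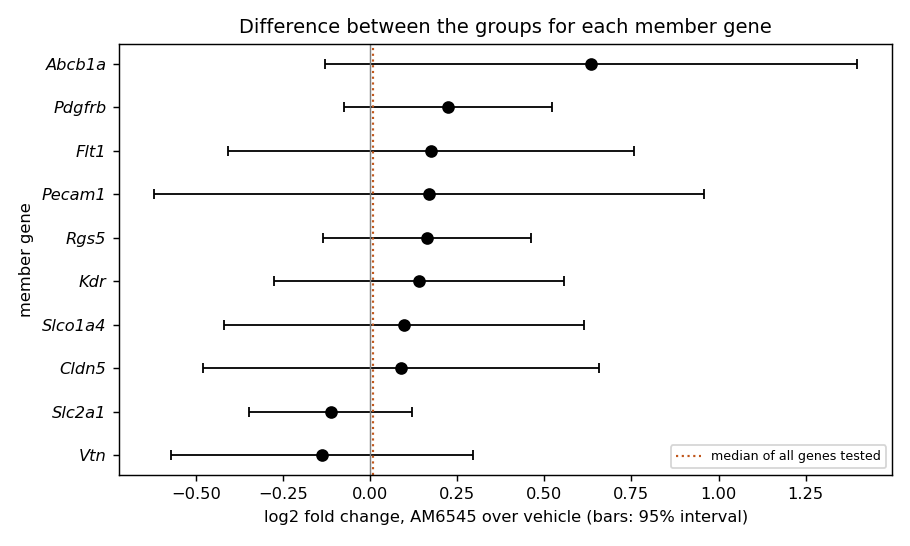
Log2 fold change of each gene, AM6545 over vehicle (horizontal axis), with its 95% interval from the edgeR fit; the dotted line is the median of all genes tested (0.01). The interval of each of the 10 genes includes 0, from Slc2a1 (-0.35 to 0.12) to Abcb1a (-0.13 to 1.40).

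The summed level of the 10 genes had a coefficient of variation of 9.86% over the 7 libraries, and its parts varied differently. The 10 genes summed to 146, 183, 148 and 152 CPM in AM6545 replicates B, D, E and F and to 161, 148 and 181 CPM in vehicle replicates B, D and E. AM6545 replicate D and vehicle replicate E were highest, 1 library from each group. The mean endothelial sum was 70.4 ± 6.91 CPM (SD, n = 4) under AM6545, and under vehicle 73.1 ± 5.98 CPM (SD, n = 3). For the mural sum these means were 86.9 ± 15.8 CPM (SD, n = 4) and 90.1 ± 14.2 CPM (SD, n = 3). Both differences were smaller than the spread between libraries, and both sums are set mainly by Slc2a1 and Vtn. The difference, AM6545 minus vehicle, was -2.77 CPM for the endothelial and -3.18 CPM for the mural genes. It changed sign without vehicle replicate E (0.0594 and 2.75 CPM), for the endothelial genes also without AM6545 replicate F (0.128 CPM) and for the mural genes without AM6545 replicate E (1.87 CPM). The median coefficient of variation of single members was 22.1% over 7 libraries, beside 13.8% for all genes tested. Slc2a1 (9.13%) and Pdgfrb (11.4%) lay below the latter, however. Of the 10 genes, 7 lay below 10 CPM.

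The 10 genes did not share 1 library order. AM6545 replicate D was highest for Cldn5, Flt1, Abcb1a and Vtn, and AM6545 replicate E for Slc2a1, Slco1a4, Kdr and Pdgfrb. In AM6545 replicate E, Cldn5 and Vtn were at their lowest. Over the 7 libraries Pearson's r of log2 CPM was 0.89 between Cldn5 and Pecam1 and 0.70 between Kdr and Slco1a4. It was -0.53 between Slco1a4 and Vtn and -0.58 between Pdgfrb and Vtn. Of the 21 pairs of endothelial genes 11 had a positive r, with a median of 0.08. These coefficients describe 7 libraries, the most extreme of 45 pairs were picked after their values were seen, and depth and composition of each library are common to both genes of a pair.

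Some lists of other markers had their highest or lowest library in common with some of these genes, and others did not. Astrocyte markers were lowest in AM6545 replicate E (4008 CPM), where Cldn5 and Vtn were lowest but Slc2a1 was highest. The other pericyte genes were lowest in AM6545 replicate B and the other endothelial genes in AM6545 replicate F. Red blood cell genes summed to 686, 759, 289 and 519 CPM in AM6545 replicates B, D, E and F and to 488, 430 and 847 CPM in vehicle replicates B, D and E. Like Cldn5 and Vtn, they were lowest in AM6545 replicate E and high in AM6545 replicate D and vehicle replicate E. Vtn and the red blood cell genes went opposite ways in both replicates B, as log2 deviations from their means. These were 0.20 and -0.15 in vehicle replicate B and -0.16 and 0.34 in AM6545 replicate B. Arterial smooth muscle genes summed to 42.6 CPM in AM6545 replicate D and 16.2 CPM in AM6545 replicate E, the highest and the lowest of the 7. By summed CPM, perivascular macrophage markers were also highest and lowest in these libraries, at 10.8 and 6.22 CPM. Vehicle replicates B (10.2 CPM) and E (10.1 CPM) lay close to the highest. By summed CPM per kb these markers were highest in vehicle replicate B and lowest in AM6545 replicate B. Choroid plexus markers summed to 3423, 2749, 5203 and 1061 CPM in AM6545 replicates B, D, E and F and to 3307, 5109 and 3623 CPM in vehicle replicates B, D and E. By summed CPM they were, like Slc2a1 and Kdr, highest in AM6545 replicate E and lowest in AM6545 replicate F. Vehicle replicate D was close behind AM6545 replicate E. By summed CPM per kb the choroid plexus markers were highest in vehicle replicate D, at 3067, and again lowest in AM6545 replicate F. All 8 choroid plexus markers, all 5 red blood cell markers, all 6 perivascular macrophage markers and 7 of 8 smooth muscle genes passed the filter, and none of these genes was at 0 in every library. Neuronal markers summed to 8961 to 9810 CPM, with all AM6545 libraries (9373 or more) above the vehicle libraries (9116 or less). Of these 8 markers, however, 4 had a fold change above 0 and 4 below, with a median log2 fold change of -0.02. Only 1 of the 8 did not overlap between groups, beside 13.8% of all genes tested. The part of other cells in the levels of the 10 genes was not tested.

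**Figure D4:**
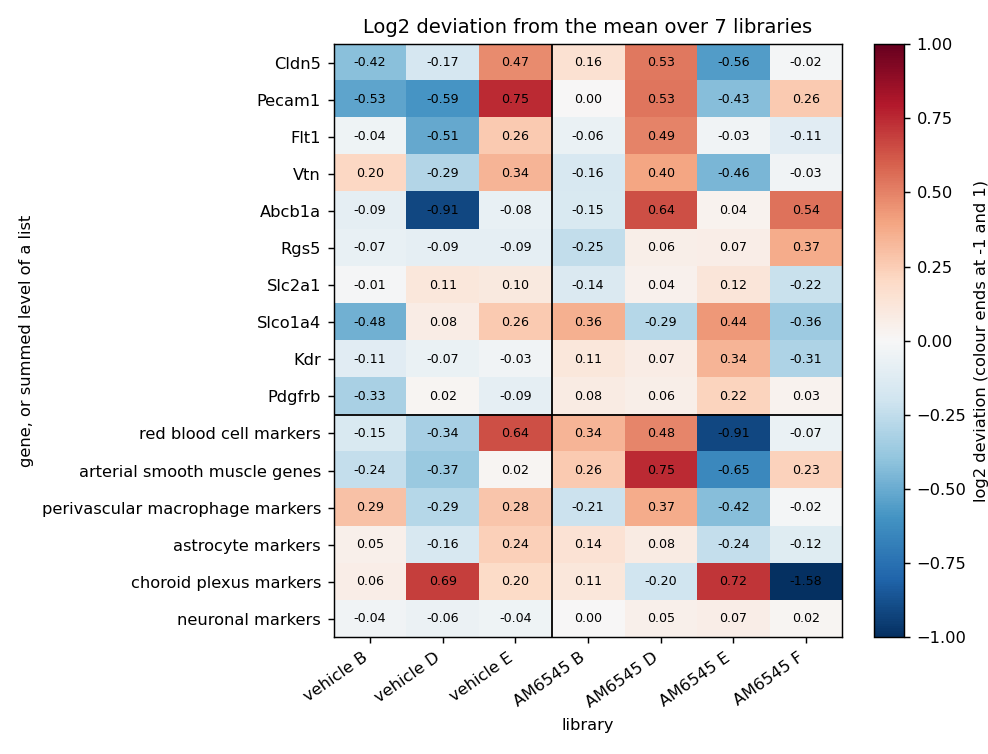
Log2 deviation of each gene's CPM from its own mean over the 7 libraries (columns; vehicle left and AM6545 right of the vertical line), with the summed CPM of 6 marker lists below the horizontal line; red is above and blue below the mean, with colours ending at -1 and 1. Cldn5, Vtn and the red blood cell, smooth muscle and macrophage rows are lowest in AM6545 replicate E, where Slco1a4, Kdr and the choroid plexus row are highest.

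The genes whose log2 CPM most resembled the mean of the 10 over the 7 libraries were Arhgap30 (Pearson's r 0.98, Spearman's rho 0.89), Colec12 (0.96, 0.93), Olfr107 (0.96, 0.96), Pex19 (0.96, 0.96) and D11Wsu47e (0.96, 1). Without AM6545 replicate D and vehicle replicate D, the libraries farthest from the median, r was 0.94, 0.97, 0.92, 0.89 and 0.95 in that order. These 5 head a ranking by r of all genes tested that were not members, so a high r over 7 libraries is what the ranking selects. No link to vessels was tested. Olfr107 averaged only 0.413 CPM. Among the listed genes, the endothelial nitric oxide synthase gene Nos3 came next, at rank 7 (r 0.95), followed by the fibroblast collagen gene Col3a1 at rank 36 (r 0.90).

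In the pathways around these genes, 0 genes of any list passed an adjusted p under 0.05 by edgeR. At an unadjusted p under 0.05 the background was 5.86% of all genes higher and 8.70% lower in AM6545. In the VEGF family, 9 of 10 genes were tested, with 0 higher and 1 lower at that level. The lower one was the ligand gene Vegfb (64.3 CPM per kb; log2 fold change -0.40, SE 0.13; edgeR, adjusted p 0.245). The ligand genes Vegfa, Vegfc, Vegfd and Pgf lay between -0.07 and 0.02, and the coreceptor genes Nrp1 and Nrp2 at -0.03 and 0.02. Flt4, the receptor of lymphatic endothelium, fell below the filter at 0 to 4 counts. In the PDGF family 6 of 6 were tested and 0 reached that level in either direction. Pdgfb, the endothelial ligand of the receptor on pericytes, had a log2 fold change of -0.07 (SE 0.13), Pdgfa -0.29 (SE 0.15), Pdgfc -0.00046 (SE 0.18), Pdgfd 0.10 (SE 0.21) and Pdgfra, a marker of oligodendrocyte precursors and fibroblasts, 0.03 (SE 0.12). Of the angiopoietins and their receptors 4 of 4 were tested and 0 reached that level. Angpt1 was at 0.02 (SE 0.18), Angpt2 at 0.05 (SE 0.32), Tek at -0.08 (SE 0.40) and Tie1 at 1.03 (SE 0.59; edgeR, adjusted p 0.437).

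Of 10 tight junction genes, Cldn5 included, 1 was higher and 0 lower at an unadjusted p under 0.05. It was Tjp1, which encodes the scaffold ZO-1 (log2 fold change 0.28; edgeR, unadjusted p 0.0410, adjusted p 0.323), named after its value was seen. The 3 highest per length were Cldn12 (7.70 CPM per kb; log2 fold change 0.24, adjusted p 0.359), F11r (7.14; -0.11) and Jam2 (5.73; 0.23). Of 15 barrier transporters, 3 of them members, 1 was higher and 2 lower at that level. These were the transferrin receptor gene Tfrc (0.40), and Insr (-0.32) and Lrp1 (-0.28), with edgeR adjusted p-values of 0.256 to 0.320. The amino acid transporter subunit gene Slc3a2 was the highest per length at 108 CPM per kb (log2 fold change -0.16, SE 0.10). Each of these genes is also made by neurons or glia. Of 11 genes of barrier Wnt signalling 0 reached that level, with Ctnnb1 (log2 fold change 0.17), Wnt7b (-0.01) and Wnt7a (-0.15) as the highest per length. Of 5 subunits of integrins that bind vitronectin or its relatives, 0 did, and the highest per length were Itgb5 (-0.11), Itgb1 (0.14) and Itgav (-0.05).

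Of 28 other endothelial genes tested, 13 were above and 15 below 0, with a median log2 fold change of -0.02, and 0 higher and 1 lower at an unadjusted p under 0.05. The lower one was Egfl7 at -0.34 (SE 0.10; edgeR, adjusted p 0.231), whose AM6545 libraries (35.6 to 39.4 CPM) lay below the vehicle libraries (42.7 to 52.9 CPM). Itm2a and Slco1c1 were at -0.09 and -0.15. Of 11 other pericyte genes tested, 3 were above and 8 below 0, with a median of -0.08, and 1 was lower at that level, Cspg4 (-0.47; edgeR, adjusted p 0.232), which oligodendrocyte precursors also make. Their summed level was 34.3 ± 1.45 CPM under AM6545 (SD, n = 4) and 40.1 ± 1.43 CPM under vehicle (SD, n = 3), without overlap. Cspg4 (9.27 and 12.8 CPM) and Mcam (12.9 and 14.8 CPM) carried most of that gap. Of the 12 genes only Cspg4 did not overlap between groups, beside 13.8% of all genes tested, 6.62% higher and 7.19% lower. The 3 highest per length, Mcam, Ndufa4l2 and Art3, had log2 fold changes of -0.20, -0.0020 and -0.12. The median was 0.23 for 7 smooth muscle genes, led per length by Myl9 (0.17), Acta2 (0.98, SE 0.48) and Tpm2 (0.23). It was 0.03 for 8 perivascular fibroblast genes, led by Dcn (0.04), Igf2 (-0.58, SE 0.26) and Slc6a13 (-0.06), and -0.12 for 12 basement membrane genes. In the last list Lama5 (-0.73) and Agrn (-0.34) were lower at that level, with edgeR adjusted p-values of 0.243 and 0.261, and Sparc was the highest per length at 418 CPM per kb (-0.27, SE 0.15), followed by Agrn and Lamb1 (0.05). The other cell lists ranged from a median of -0.33 for 12 microglia markers, of which 7 were lower and 0 higher at that level, to 0.03 for 8 astrocyte markers. The highest per length had log2 fold changes of -0.45 (C1qb) and -0.46 (C1qc) for microglia and of -0.07 (Aldoc), -0.02 (Gfap) and 0.10 (Slc1a3) for astrocytes. For astrocyte endfeet these were Mlc1 (-0.08), Gja1 (0.12) and Gjb6 (-0.15), and for oligodendrocytes Mbp (-0.09) and Mobp (0.16). For choroid plexus they were Ttr (-0.75, SE 0.48), Enpp2 (-0.07) and Kcnj13 (-0.37), and for ependyma Rarres2 (-0.18), Ccdc153 (0.08) and Dynlrb2 (-0.19). Red blood cell genes were led by Hbb-bs (0.03), Hba-a1 (-0.12) and Hba-a2 (-0.13), perivascular macrophage genes by Pf4 (-0.58), Cbr2 (-0.58) and Mrc1 (-0.11), and neuronal genes by Snap25 (0.21), Syp (0.01) and Slc17a7 (-0.05).

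**Figure D5:**
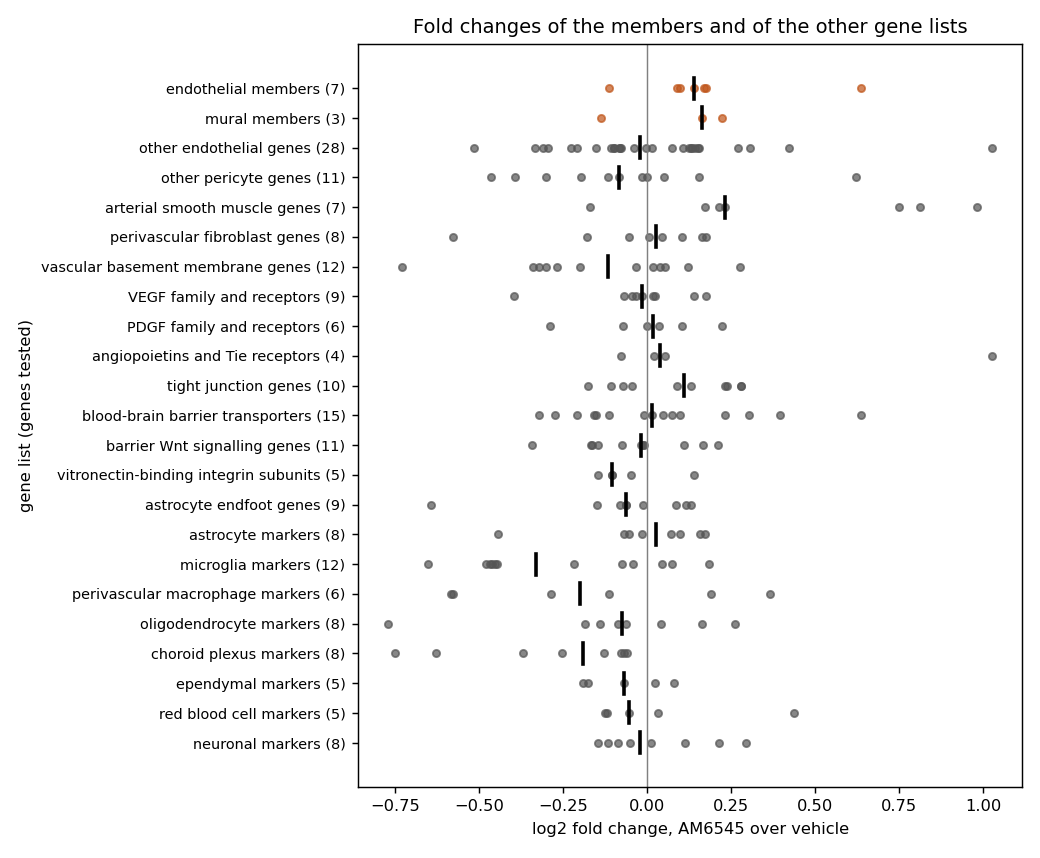
Log2 fold change, AM6545 over vehicle (horizontal axis), of each tested gene of the members (orange) and of the other lists (grey), with the number tested in brackets and the list median as a black bar; some genes are in several lists. The medians of the 7 endothelial and 3 mural genes (0.14 and 0.16) lie above those of the other endothelial (-0.02) and pericyte genes (-0.08), with single genes spread on both sides of 0.

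The transcript table listed 39 transcripts of the 10 genes, of which 16 passed the filter. Of these 0 had an adjusted p under 0.05 by edgeR, beside 0.0177% of 33962 transcripts tested, and 0 had an unadjusted p under 0.05, beside 8.39%. DESeq2 and limma-voom also gave 0 after adjustment, with 0 and 1 at an unadjusted p under 0.05, beside 10.2% and 11.7% of all transcripts. Cldn5, Kdr and Rgs5 were each assigned to 1 transcript in every library. The protein-coding transcript Slc2a1-201 took 65.6%, 71.8%, 65.6% and 69.5% of the counts of Slc2a1 in AM6545 replicates B, D, E and F, and 61.1%, 64.3% and 64.8% in vehicle replicates B, D and E. Nearly all of the rest was Slc2a1-204, annotated as a target of nonsense-mediated decay. The shares of the groups did not overlap, which was noticed after the values were seen. Among 13 tested member transcripts with 1% to 99% of their gene, these 2, which mirror each other, did not overlap, beside 8.65% of 26951 such transcripts. The levels of both transcripts did not pass, with log2 fold changes of -0.01 for Slc2a1-201 (edgeR, adjusted p 0.994) and -0.30 for Slc2a1-204 (edgeR, unadjusted p 0.0652, adjusted p 0.623). Vtn-201 took 96.9% ± 1.36 of Vtn in AM6545 (SD, n = 4) and 94.9% ± 1.04 in vehicle (SD, n = 3). Flt1 was divided between Flt1-203, at 62.4% ± 8.05 (SD, n = 4) and 67.2% ± 6.22 (SD, n = 3), and Flt1-202, at 29.5% ± 14.0 and 32.8% ± 6.22. Slco1a4-203 took 76.9% ± 14.9 (SD, n = 4) and 83.5% ± 12.4 (SD, n = 3), and most of the rest was Slco1a4-201. For Abcb1a, the protein-coding Abcb1a-201 took 63.1% ± 25.7 (SD, n = 4) and 38.0% ± 13.7 (SD, n = 3), and the rest fell to a transcript with a retained intron. For Pecam1 the division changed from library to library. Pecam1-203 took from 0% to 94.0%, Pecam1-202 from 0% to 86.4% and Pecam1-204 from 0% to 48.0%, at 20.2 to 48.5 counts of the gene a library. Transcripts were divided by estimation, and the error of that step is not given in the files.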

How the data were processed

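RNA of synaptoneurosomes was sequenced after extraction with an RNeasy kit and library preparation with a SMARTer Ultra Low Input kit, per the labels' protocols. The authors deposited estimated counts per gene and per transcript, with 1 column per library and no scaling. Salmon 1.5.2 and mm10 are named in the submitters' processing notes, while which annotation was used, and whether strand was, is not given in the sources used here. Names, positions, lengths and GC content came from GENCODE M21, in which 22148 of 22248 gene and 101527 of 102392 transcript identifiers were found, ignoring versions. The deposited versions differ, so lengths are approximate.

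Estimated counts were rounded. AM6545 was compared with vehicle across all genes with edgeR 4.0.16 in R 4.3.3 (quasi-likelihood F test, filterByExpr, TMM factors, robust fitting, no covariates) and Benjamini-Hochberg adjustment over all genes, or transcripts, tested. Standard errors are the absolute fold change over the square root of F. CPM are counts relative to the TMM-scaled library size. Gene length is the mean transcript length weighted by counts. The code was tested on simulated data: among 14562 genes edgeR recovered 83.0% of changes of 1 and 94.0% of changes of 2 on the log2 scale, and among 31702 transcripts 4.00% and 37.0%, while 8.76% and 6.82% of its calls were false.

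The members and gene lists were chosen with earlier results of these data known. In each list the 3 genes with the highest CPM per kb are named, with all genes of the VEGF, PDGF and angiopoietin lists and transcripts with at least 10% of a gene's counts; other names were picked after values were seen, and some genes under this rule are not reported here. Lists are described by counts and medians, without a test. Alternatives were other scalings, limma-voom (limma 3.58.1, library quality weights), DESeq2 1.42.0, no filter or a mean of at least 50 counts, no robust fitting, the replicate letter as a block, a GC and length correction (lowess, span 0.3) with and without the block, and leaving out each library.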

Additional observations from a re-analysis of the deposited data

Results flagged for a closer look

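Within the AM6545 group, 46 values were compared across its 4 libraries (CPM of the 10 genes, summed CPM of the lists and shares of transcripts). Of these, 3 had 1 library far outside the rest. Chance would give 2.3 for independent, normally distributed values. That rate does not hold here, because some lists share genes and transcript shares can lie at 0% or 100% in several libraries. The vehicle group of 3 was not examined in this way. Flt1 was at 2.10 CPM in AM6545 replicate D, while the remaining AM6545 libraries held 1.38 to 1.46 CPM and vehicle ones 1.05 to 1.79 CPM. Pdgfrb-201 took 84.7% of the counts of Pdgfrb in AM6545 replicate F and 100% in every other library. Pecam1-204 took 38.1% of the counts of Pecam1 in AM6545 replicate B and 0% in the other AM6545 libraries, against 0%, 48.0% and 0% in vehicle replicates B, D and E.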

How the results depend on the processing

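None of the 10 genes and none of their transcripts passed an adjusted p under 0.05 under any of the 18 alternatives in which they were tested (16 for transcripts). Over all genes the count of 1 became 205 with DESeq2, 118 with limma-voom, 2 with a mean of at least 50 counts, 2 without robust fitting and 0 after the GC and length correction (987 at an unadjusted p under 0.05 by edgeR), and ran from 0 to 944 on leaving out 1 library, with 944 without vehicle replicate E and 0 without vehicle replicate B (954 unadjusted) or AM6545 replicate E (1677 unadjusted). Of 177 fold changes of members under alternatives, 14 changed sign, none of them past the threshold. With limma-voom Slco1a4 moved to -0.18 and Vtn to 0.27. After the GC and length correction Slco1a4 moved to -0.13 and Rgs5 to -0.054, and with the replicate block added to -0.032 and -0.19. On leaving out 1 library, Slco1a4 ranged from -0.090 to 0.25, Cldn5 from -0.10 to 0.37, Pecam1 from -0.066 to 0.71 and Flt1 from -0.011 to 0.35. The causes were not tested. Same-letter libraries had correlations of their deviations from the group means of -0.26, -0.13 and -0.18, and none correlated best with its own letter. These correlations cannot show whether libraries of the same letter share a batch or a pairing. With the replicate block, 0 of the 10 genes and 1 gene in all passed. Depth limits Abcb1a, Pecam1 and Flt1 most, at 120 to 250 counts in all libraries together.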
